A study of Mus musculus with 4 samples.

Results

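The chemokine ligands measured here are the 33 genes, of 22222 in the deposited table, whose symbols are Ccl, Cxcl, Xcl or Cx3cl followed by a number and at most 1 letter. They were measured in cells of mouse keratoacanthomas, skin tumours that can regress on their own, at the end of 20 weeks of DMBA and after 1 week without it. DMBA is a polycyclic hydrocarbon that causes skin tumours. The 2 libraries called on DMBA came from 1 mouse each, still under DMBA at collection (0 weeks after it), and the 2 libraries called 1 week came from 1 mouse each, kept without DMBA for 1 week. All 4 mice were different animals, and all had received the same 20 weeks of DMBA. The RNA was from cells sorted as positive for Tomato and for P-cadherin and labelled as epithelial. The sources used here do not give strain, genotype, age or what drives the Tomato label, and no untreated skin is among the libraries. The series concerns how such tumours regress, and the comparison made here is 1 week against on DMBA.

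Chemokines are small secreted proteins that bind G protein coupled receptors and guide the migration of leukocytes and other cells. The families are named by their first cysteines: CC ligands mostly attract monocytes, eosinophils, dendritic cells and T cells, and CXC ligands attract neutrophils when they carry the ELR motif and other leukocytes when they do not. In skin, keratinocytes, fibroblasts, endothelial cells and resident macrophages all make chemokines, and many of the inflammatory ones are switched on through NF-kappa B or interferon signalling. Levels below are in scaled CPM, the reads of a gene divided by a library size that the submitters had scaled. Each pair of values gives library 1 of a group first and library 2 second, which the plots call replicates 1 and 2.

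The libraries held 9678682 and 5635945 recovered reads on DMBA and 5551937 and 7662159 at 1 week, and on-DMBA library 1 stood apart from the others. The 6 keratinocyte markers (Krt5, Krt14, Cdh3, Epcam, Itga6 and Cdh1) summed to 40270.1 scaled CPM in on-DMBA library 1, to 474 in on-DMBA library 2 and to 3553 and 3039 at 1 week. The 5 macrophage and monocyte markers found in the table (Lyz2, Csf1r, Cd68, Emr1 and Cd14) summed to 10.6 and 12248 under DMBA against 4637 and 8602 after 1 week, and the 3 leukocyte markers (Ptprc, Laptm5 and Coro1a) to 5.34 and 1308 under DMBA against 855 and 1538 after 1 week. The 5 fibroblast markers (Col1a1, Col3a1, Pdgfra, Dcn and Lum) summed to 123 and 29986 under DMBA against 31656 and 35628 after 1 week. The label of an epithelial sort fitted on-DMBA library 1, while the other 3 libraries had lower keratinocyte sums and higher sums of the macrophage, leukocyte and fibroblast markers. Medians of the ligands and of the context gene lists, and counts of calls of the ligands, are therefore also given without on-DMBA library 1. The part of these markers in the results was not tested. In such bulk RNA, fewer cells of a type and less RNA per cell cannot be told apart.

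**Figure D1:**
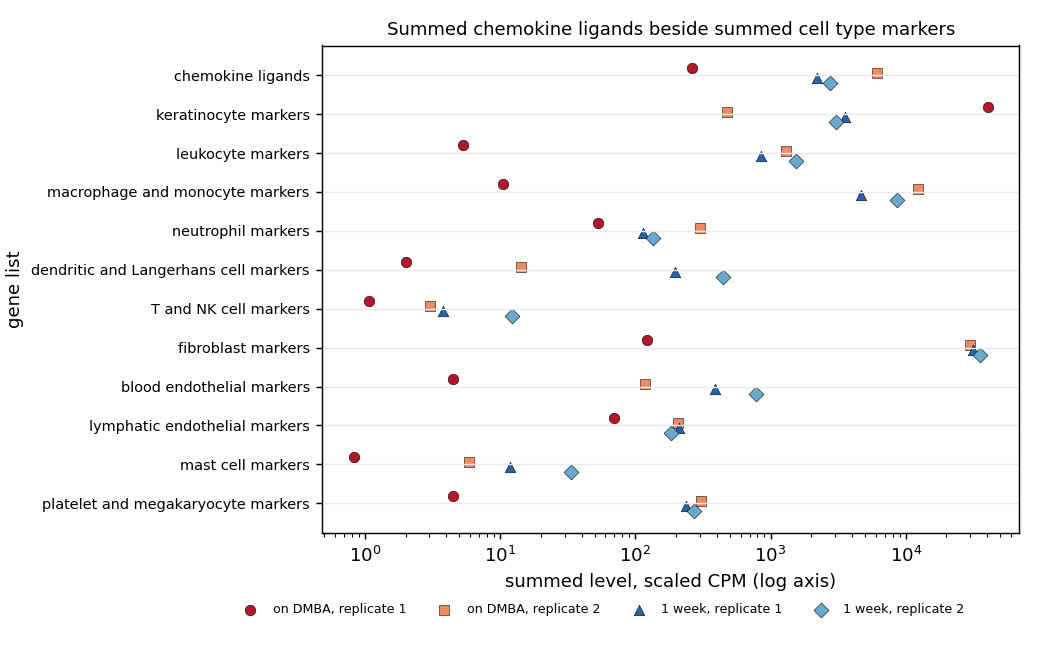
Summed level of the chemokine ligands and of each cell type marker list in scaled CPM (log axis), with 1 point per library. On-DMBA replicate 1 has the lowest chemokine sum (261) and the highest keratinocyte marker sum (40270.1), and on-DMBA replicate 2 has the highest chemokine sum (6085) and the lowest keratinocyte marker sum (474).

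RefSeq promoter windows of the GRCm38.p6 build were matched by symbol for 22 of the 33 ligands, and the 250 bases before each start were searched. The NF-kappa B site was searched by its 10-letter kappa B consensus on both strands, and it was found in 7 of 25 ligand windows (Ccl1, Ccl20, Ccl9, Cxcl1, Cxcl10, Cxcl2 and Cxcl3) and in 1643 of all 32851 windows. An interferon response element, searched as GAAANNGAAA on both strands, was found in 2 of 25 ligand windows (Cxcl10 and Cxcl14) and in 2.98% of all windows. A TATA box, searched as TATAAA on the gene's own strand, was found in 9 ligand windows and in 7.59% of all windows. A match describes letters only, not a bound site.

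The neutrophil attractants Cxcl1, Cxcl2 and Cxcl3 are shown because they lie close together on chromosome 5 and hold the same 10 letters, GGGAATTTCC, at 71 to 62, 97 to 88 and 73 to 64 bases before the start. Capitals mark the kappa B match.
Cxcl1 (chr5:90890995-90891244, + strand): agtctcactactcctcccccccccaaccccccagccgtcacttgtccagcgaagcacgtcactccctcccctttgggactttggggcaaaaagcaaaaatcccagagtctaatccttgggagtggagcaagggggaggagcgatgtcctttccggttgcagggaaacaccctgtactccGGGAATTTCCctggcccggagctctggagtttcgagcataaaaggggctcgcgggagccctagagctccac
Cxcl2 (chr5:90903649-90903898, + strand): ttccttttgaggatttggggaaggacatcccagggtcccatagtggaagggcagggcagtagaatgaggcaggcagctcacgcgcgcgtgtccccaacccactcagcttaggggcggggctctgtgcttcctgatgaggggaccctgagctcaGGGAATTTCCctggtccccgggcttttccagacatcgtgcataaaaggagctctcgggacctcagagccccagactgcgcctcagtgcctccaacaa
Cxcl3 (chr5:90785851-90786100, + strand): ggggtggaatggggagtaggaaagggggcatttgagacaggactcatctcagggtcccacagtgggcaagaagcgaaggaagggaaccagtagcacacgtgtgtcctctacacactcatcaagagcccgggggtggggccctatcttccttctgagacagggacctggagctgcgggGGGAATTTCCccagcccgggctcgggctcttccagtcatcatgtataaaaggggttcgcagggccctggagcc

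Cxcl10 is shown because its window holds both kinds of site. Capitals mark the interferon response element at 213 to 204 bases before the start and 2 overlapping kappa B matches, at 104 to 95 and at 103 to 94.
Cxcl10 (chr5:92348890-92349139, - strand): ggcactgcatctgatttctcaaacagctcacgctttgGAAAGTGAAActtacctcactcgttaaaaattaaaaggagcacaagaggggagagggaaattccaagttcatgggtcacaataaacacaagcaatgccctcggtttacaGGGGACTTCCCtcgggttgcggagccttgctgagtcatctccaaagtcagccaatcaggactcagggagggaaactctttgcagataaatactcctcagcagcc

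Ccl8 and Ccl12 are shown as neighbouring CC ligand genes whose levels were far apart between on-DMBA library 2 and the 1-week libraries. Cxcl13 is shown as the ligand with the smallest p. None of the 3 windows holds a match to the kappa B consensus or to the interferon response element, so they carry no capitals, and each holds TATAAA (32 to 27, 31 to 26 and 46 to 41 bases before the start).
Ccl8 (chr11:82114935-82115184, + strand): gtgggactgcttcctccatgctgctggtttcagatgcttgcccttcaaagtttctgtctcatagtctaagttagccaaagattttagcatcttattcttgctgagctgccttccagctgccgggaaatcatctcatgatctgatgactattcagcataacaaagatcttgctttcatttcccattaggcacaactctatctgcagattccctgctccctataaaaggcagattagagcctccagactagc
Ccl12 (chr11:82101595-82101844, + strand): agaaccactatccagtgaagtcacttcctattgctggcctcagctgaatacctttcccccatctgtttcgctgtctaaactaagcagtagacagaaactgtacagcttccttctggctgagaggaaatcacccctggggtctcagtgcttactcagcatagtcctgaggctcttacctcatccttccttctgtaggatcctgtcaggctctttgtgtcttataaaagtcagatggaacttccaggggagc
Cxcl13 (chr5:95956689-95956938, + strand): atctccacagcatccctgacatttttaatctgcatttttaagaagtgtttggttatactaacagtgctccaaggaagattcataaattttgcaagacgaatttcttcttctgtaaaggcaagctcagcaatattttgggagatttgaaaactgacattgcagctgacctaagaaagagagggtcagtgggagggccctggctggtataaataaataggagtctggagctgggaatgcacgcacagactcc

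Together the 33 ligands took 2196 reads (261 scaled CPM) in on-DMBA library 1 and 33907 reads (6085 scaled CPM) in on-DMBA library 2, against 14175 reads (2215 scaled CPM) and 19334 reads (2758 scaled CPM) at 1 week. The 2 libraries on DMBA thus lay on either side of the 1-week libraries. Of the 33 ligands, 24 reached 1 scaled CPM in at least 2 libraries and were tested, and 9 did not (Ccl1, Ccl5, Ccl17, Ccl20, Ccl22, Ccl26, Cxcl15, Cxcl17 and Xcl1). On-DMBA library 1 held the lowest of the 4 values for 18 of the 24 tested ligands, where the share over all 15419 genes tested was 37.5%, and the highest for 1 of 24, where it was 41.7%. On-DMBA library 2 held the highest value for 15 of the 24, against 19.2% of all genes. Between the on-DMBA libraries the median absolute difference of the 24 ligands was 3.34 on the log2 scale, and between the 1-week libraries it was 0.50. Over all genes tested these medians were 1.02 and 0.51.

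**Figure D2:**
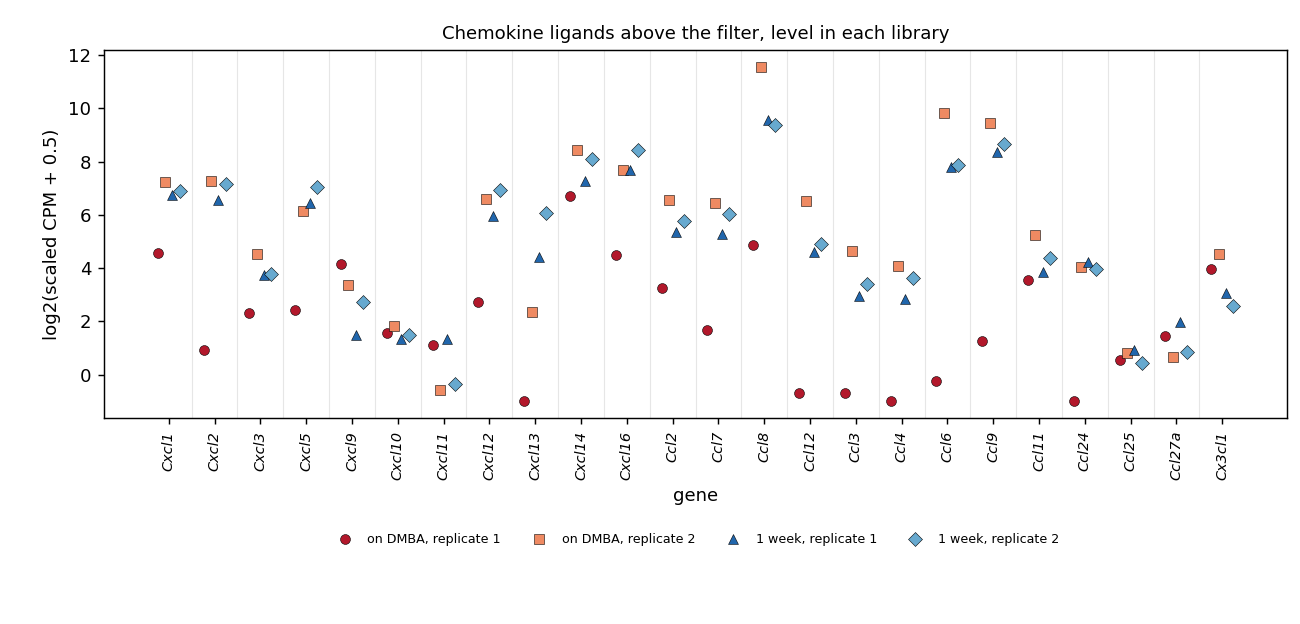
Level of the 24 ligands above the filter in each of the 4 libraries, as log2(scaled CPM + 0.5), ordered by role. Most ligands lie low in on-DMBA replicate 1 and close together in the 2 libraries at 1 week, and Cxcl13, Cxcl5, Cxcl9, Cxcl10 and Cx3cl1 are the 5 whose groups do not overlap.

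With all 4 libraries no ligand passed the test. In limma on log2(scaled CPM + 0.5), at an adjusted p under 0.05 over all genes tested, 0 of 24 ligands were higher and 0 lower at 1 week, as were 0% of all genes in each direction. At an unadjusted p under 0.05 there was 1 ligand higher (2.28% of all genes) and 0 lower (0.195% of all genes). The edgeR test on recovered reads also called 0 ligands, with 0% of all genes called in each direction, and DESeq2 called 0 ligands, with 0.104% of all genes past the threshold upwards and 0.0195% downwards. The 2 libraries of each group lay apart, with no overlap, for 2 ligands higher at 1 week (14% of all genes) and 3 lower (9.14% of all genes). The median log2 difference of the 24 ligands, 1 week minus on DMBA, was 1.23, and that of all genes tested was -0.02. The same median was 0.08 in edgeR and 0.03 in DESeq2, which compare mean reads rather than mean log values.

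Which on-DMBA library was kept set the direction of most ligands. Without on-DMBA library 1 the median of the 24 ligands was -0.75, and without on-DMBA library 2 it was 3.67. The difference was below 0 in the first case and above 0 in the second for 15 of the 24. It was above 0 in both for 4 (Ccl24, Cxcl5, Cxcl13 and Cxcl16) and below 0 in both for 3 (Cx3cl1, Cxcl9 and Cxcl10), while Cxcl11 and Ccl27a turned the other way. Without on-DMBA library 1, limma called 1 ligand higher (Cxcl13, with 2.35% of all genes called) and 2 lower (Ccl6 and Ccl12, with 0.999% of all genes called). Without on-DMBA library 2 it called 15 higher, with 14.3% of all genes called, and 1 lower (Cxcl9), with 10% of all genes called. In these fits the lone on-DMBA library was assumed to vary like the 1-week libraries. No ligand was called without 1-week library 1 or without 1-week library 2, and the median was then 1.30 and 1.14.

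**Figure D3:**
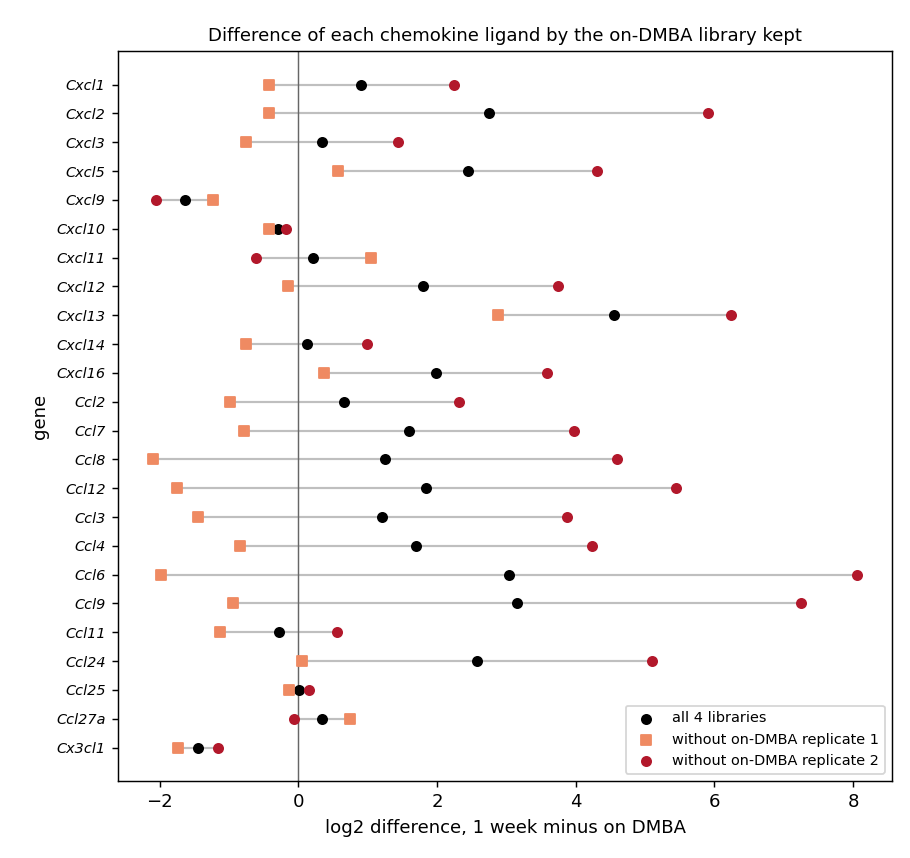
Log2 difference of each of the 24 ligands, 1 week minus on DMBA, with all 4 libraries and without each on-DMBA library, joined by a line. For 15 ligands the squares (without on-DMBA replicate 1) lie left of 0 and the red circles (without on-DMBA replicate 2) right of it, and Cxcl13 lies furthest right among the squares at 2.87.

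Cxcl13, which attracts B cells and some helper T cells through Cxcr5, was the ligand with the smallest p. It gave 0 and 26 reads on DMBA and 134 and 465 at 1 week, which is 0 and 4.67 scaled CPM against 20.9 and 66.3. Both 1-week libraries lay above both on-DMBA libraries, and they differed from each other by 3.17-fold. The log2 difference was 4.56 (SE 1.32, unadjusted p = 0.0167, limma adjusted p = 1.00), and it was 5.76 with a pseudocount of 0.1 and 4.01 with 1, because 1 library stands at 0. Without on-DMBA library 1 it was 2.87 and passed (limma adjusted p = 2.1e-05). On-DMBA library 2 was under both 1-week libraries by more than 2 times for this ligand alone among the 24 (7.85% of all genes). The receptor gene Cxcr5 measured 0.712 and 0.897 under DMBA against 5.16 and 0.998 after 1 week.

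Among the ELR ligands, which draw neutrophils through Cxcr2, Cxcl5 was the one whose groups did not overlap. Its level was 4.87 and 71.1 scaled CPM under DMBA against 85.8 and 132 after 1 week, and the log2 difference was 2.45 (SE 1.26, unadjusted p = 0.108, limma adjusted p = 1.00). In the fit that left out on-DMBA library 1 the difference was 0.58 and did not pass, and without on-DMBA library 2 it was 4.31 and passed (limma adjusted p = 3.3e-14). Cxcl2 gave 1.42 and 155 scaled CPM under DMBA against 93.1 and 142 after 1 week, so that the 1-week libraries lay between the on-DMBA libraries. Cxcl1, the mouse KC chemokine, gave 23.4 and 152 under DMBA against 108 and 118 after 1 week. Cxcl3 gave 4.51 and 22.4 under DMBA against 12.8 and 13.4 after 1 week. For these last 3 genes on-DMBA library 2 was the highest library and on-DMBA library 1 the lowest, and the 1-week libraries differed by at most 1.53-fold. The same order of libraries was found for 13 of the 24 tested ligands and for 2099 of all 15419 genes tested. Cxcl15, known from lung epithelium, gave at most 5 reads in any library. The receptor gene Cxcr2 measured 8.67 and 9.87 under DMBA against 12.8 and 10.4 after 1 week. The 4 neutrophil markers found in the table (S100a8, S100a9, Csf3r and Mpo) summed to 53.2 and 301 under DMBA against 114 and 135 after 1 week, and Mpo was at or below 1.62 in every library.

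The interferon-induced ligands of Cxcr3, Cxcl9, Cxcl10 and Cxcl11, attract activated T cells and natural killer cells. On-DMBA library 1 was not the lowest library for any of the 3. Cxcl9 stood at 17.5 and 9.69 scaled CPM under DMBA against 2.34 and 6.13 after 1 week, and the groups did not overlap. Its log2 difference was -1.64 (SE 0.78, unadjusted p = 0.0863, limma adjusted p = 1.00). The difference was -1.23 without on-DMBA library 1 and did not pass, and it was -2.05 without on-DMBA library 2 and passed (limma adjusted p = 0.0076). Cxcl10 stood at 2.49 and 3.05 under DMBA against 2.03 and 2.28 after 1 week, on 13 to 21 reads a library. The groups did not overlap, but the log2 difference of -0.30 (SE 0.69, unadjusted p = 0.684, limma adjusted p = 1.00) was smaller than its error. With plain CPM of the recovered reads its groups overlapped, while those of Cxcl16 then did not, with both 1-week libraries higher. Cxcl11 was read 14 and 1 times on DMBA and 13 and 2 times at 1 week, so it differed more within each group than between them. The receptor gene Cxcr3 measured 0.119 and 6.82 under DMBA against 2.66 and 3.14 after 1 week. T and natural killer cell markers were low throughout: the 5 found in the table (Cd3e, Cd3g, Cd8a, Nkg7 and Ncr1) summed to 1.07 and 3.05 under DMBA against 3.75 and 12.3 after 1 week.

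Of the other CXC ligands that were tested, Cxcl14, a chemokine made constitutively by epithelia, differed by the smallest fold between the on-DMBA libraries. It was found at 103 and 345 scaled CPM under DMBA against 152 and 275 after 1 week, and it alone made up 39.4% of the ligand reads of on-DMBA library 1 (Wilson 95% interval 37.4 to 41.5, counting error only). Cxcl12, which retains haematopoietic and other cells through Cxcr4, was found at 6.06 and 96.6 under DMBA against 62 and 122 after 1 week. Its receptor gene Cxcr4 measured 0.712 and 85.8 under DMBA against 172 and 159.7 after 1 week, without overlap of the groups (log2 difference 4.02, SE 1.96, not called). Cxcl16, a membrane-anchored ligand of Cxcr6 that can be shed, was found at 21.7 and 206.9 under DMBA against 206.5 and 347 after 1 week, so on-DMBA library 2 and 1-week library 1 were level. Cxcr6 itself measured 0.356 and 2.15 under DMBA against 1.56 and 9.13 after 1 week. Cxcl17, a mucosal chemokine, gave 3 reads or fewer in every library.

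Ccl2, Ccl7, Ccl8 and Ccl12, listed together as ligands of Ccr2, took 29.7% or more of the chemokine reads in each library other than on-DMBA library 1. In those libraries Ccl8 alone took 24.3% or more of the chemokine reads. Ccl8, listed with the ligands of Ccr2 although the mouse protein is known to act on Ccr8, was found at 28.9 and 3024 scaled CPM under DMBA against 753 and 670.2 after 1 week. On-DMBA library 2 exceeded on-DMBA library 1 by 105-fold and the mean of the 1-week libraries by 4.25-fold, while the 1-week libraries differed by 1.12-fold. Ccl12, the mouse monocyte chemoattractant MCP-5, gave 1 and 503 reads on DMBA and 152 and 207 at 1 week (0.119 and 90.3 against 23.8 and 29.5 scaled CPM). Without on-DMBA library 1 its log2 difference was -1.75 and passed (limma adjusted p = 0.046), and for Ccl8 it was -2.09 and did not (limma adjusted p = 0.066). Ccl2, the main ligand that brings monocytes out of blood, was found at 9.02 and 93.5 under DMBA against 40.2 and 54.6 after 1 week. Ccl7, a further ligand of Ccr2, was found at 2.73 and 86.3 under DMBA against 38.6 and 65 after 1 week. In all 4 on-DMBA library 1 was lowest and on-DMBA library 2 highest, and of the 1-week libraries the second was the higher for each but Ccl8. The receptor gene Ccr2 measured 0.712 and 158 under DMBA against 45.3 and 277 after 1 week, with the highest value in 1-week library 2.

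The myeloid CC ligands Ccl3, Ccl4, Ccl6 and Ccl9 gave few or no reads in on-DMBA library 1. Ccl6, made by mouse myeloid cells, gave 3 reads in that library and 5010 in on-DMBA library 2, against 1422 and 1622 at 1 week (0.356 and 899 against 222 and 231 scaled CPM). Leaving out on-DMBA library 1 gave a log2 difference that was -1.99 and passed (limma adjusted p = 0.046), and without on-DMBA library 2 it was 8.05. Ccl9, a related myeloid ligand of Ccr1, was found at 1.9 and 706 under DMBA against 329 and 408 after 1 week. Ccl3 gave 1 and 135 reads on DMBA and 47 and 70 at 1 week, and Ccl4 gave 0 and 91 under DMBA against 43 and 83 after 1 week. These macrophage inflammatory proteins thus kept the same order, with on-DMBA library 2 highest. Ccl5, which T and natural killer cells make in quantity, gave 0 and 0 reads on DMBA and 1 and 1 at 1 week, so no difference was detectable at this depth. The receptor gene Ccr1 measured 0.237 and 419 under DMBA against 201 and 339.9 after 1 week. The macrophage markers followed the same order of libraries in their sum, given above, with their part in these ligands not tested.

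Against both 1-week libraries on-DMBA library 2 was higher by more than 2 times for 5 of the 24 ligands, Ccl3, Ccl6, Ccl8, Ccl12 and Cx3cl1 (3.18% of all genes). Of these, Cx3cl1 was the only one that was also higher in on-DMBA library 1 than in both 1-week libraries. Cx3cl1, or fractalkine, is a membrane-anchored adhesion ligand for monocytes and resident macrophages. It was found at 15.2 and 22.8 scaled CPM on DMBA (128 and 127 reads) and at 7.81 and 5.42 at 1 week (50 and 38 reads). The log2 difference was -1.45 (SE 0.63, unadjusted p = 0.0691, limma adjusted p = 1.00), and leaving out on-DMBA library 1 or 2 gave -1.73 and -1.16, again not called. The receptor gene Cx3cr1 measured 1.66 and 587 under DMBA against 77.5 and 148 after 1 week, and it was highest in on-DMBA library 2. Xcl1, a ligand for cross-presenting dendritic cells, gave 0 and 3 reads on DMBA and 0 and 5 at 1 week.

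Ccl17 and Ccl22, which dendritic cells make to attract T cells through Ccr4, were below the filter and were read more often at 1 week. Ccl17 gave 0 and 0 reads on DMBA and 5 and 37 at 1 week, a mean of at least 6.77-fold higher against a floor of 3 reads per on-DMBA library. Ccl22 gave 1 and 2 reads on DMBA and 6 and 22 at 1 week. Neither gene was tested with the filter used, and the reads at 1 week came mostly from replicate 2. The 4 dendritic and Langerhans cell markers (Itgax, Flt3, Cd207 and Ccr7) summed to 2.02 and 14.4 under DMBA against 196 and 444 after 1 week, with Itgax at 0.831 and 10.4 against 181 and 426, and their part in the 2 ligands was not tested. Ccr4 itself measured 1.66 and 4.13 under DMBA against 4.84 and 1.71 after 1 week, with overlapping groups. Ccl1, a ligand of Ccr8, gave 3 reads or fewer in every library.

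The eosinophil attractants of Ccr3 did not separate the groups. Ccl11, or eotaxin, was found at 11.2 and 37.2 scaled CPM under DMBA against 13.9 and 20.1 after 1 week. Ccl24, or eotaxin 2, gave 0 reads in on-DMBA library 1 and was level in the other 3 libraries, at 16.2 scaled CPM in on-DMBA library 2 and 18.4 and 15.1 at 1 week. On-DMBA library 2 was at least 45.3-fold higher than replicate 1 for Ccl24, against a floor of 3 reads in that library. Ccl26 gave 0 reads in all 4 libraries, and 3 reads would be 0.356 and 0.538 scaled CPM under DMBA against 0.469 and 0.428 after 1 week. Ccr3 measured 0.237 and 4.31 under DMBA against 1.25 and 2.42 after 1 week.

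The ligands known from epithelia and thymus were low in all libraries. Ccl27a, a keratinocyte ligand of Ccr10, was found at 2.26 and 1.08 scaled CPM under DMBA against 3.44 and 1.28 after 1 week. It has near-identical copies on chromosome 4, so its reads are uncertain. Ccl25, which guides thymocytes and gut T cells through Ccr9, was found at 0.95 and 1.26 under DMBA against 1.41 and 0.856 after 1 week, on 6 to 9 reads a library. Ccl20, the ligand of Ccr6, gave 11 reads in on-DMBA library 1, the library with the highest keratinocyte markers, and 2 or fewer in each of the others. Ccl19, Ccl21a and Ccl28 fit the naming rule, but these symbols were absent from the deposited table and could not be read.

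The make-up of the chemokine reads differed between the libraries as well as their sum. Ccl2, Ccl7, Ccl8 and Ccl12 together gave 15.6% and 54.1% of all ligand reads under DMBA against 38.6% and 29.7% after 1 week. The Wilson 95% intervals were 14.2 to 17.2, 53.6 to 54.7, 37.8 to 39.4 and 29.1 to 30.4. Ccl8 alone gave 11.07% and 49.69% under DMBA against 33.97% and 24.3% after 1 week. Ccl2, Ccl7 and Ccl12 each gave 3.46% or less in every library, so the differences in this share came mostly from Ccl8. Ccl3, Ccl4, Ccl5, Ccl6 and Ccl9 together gave 0.911% and 27% under DMBA against 25.5% and 24% after 1 week, so the 3 libraries other than on-DMBA library 1 were close. The ELR ligands gave 13.2% and 6.58% under DMBA against 13.5% and 14.7% after 1 week. The interferon-induced ligands gave 8.29% in on-DMBA library 1 and between 0.212% and 0.316% in the others. Their summed level differed less than their share, at 21.6 and 12.9 scaled CPM under DMBA against 6.41 and 8.70 after 1 week. These shares are of reads and are not corrected for transcript length. Per kilobase of the longest GENCODE M21 transcript, Ccl8 had the highest level of all ligands in each library, at 56.5 and 5917 scaled CPM per kilobase on DMBA and 1473 and 1312 at 1 week. In on-DMBA library 1 Cxcl14 was level with it at 56.2 per kilobase, and in the other libraries Ccl6 was second at 624, 154 and 161 per kilobase.

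**Figure D4:**
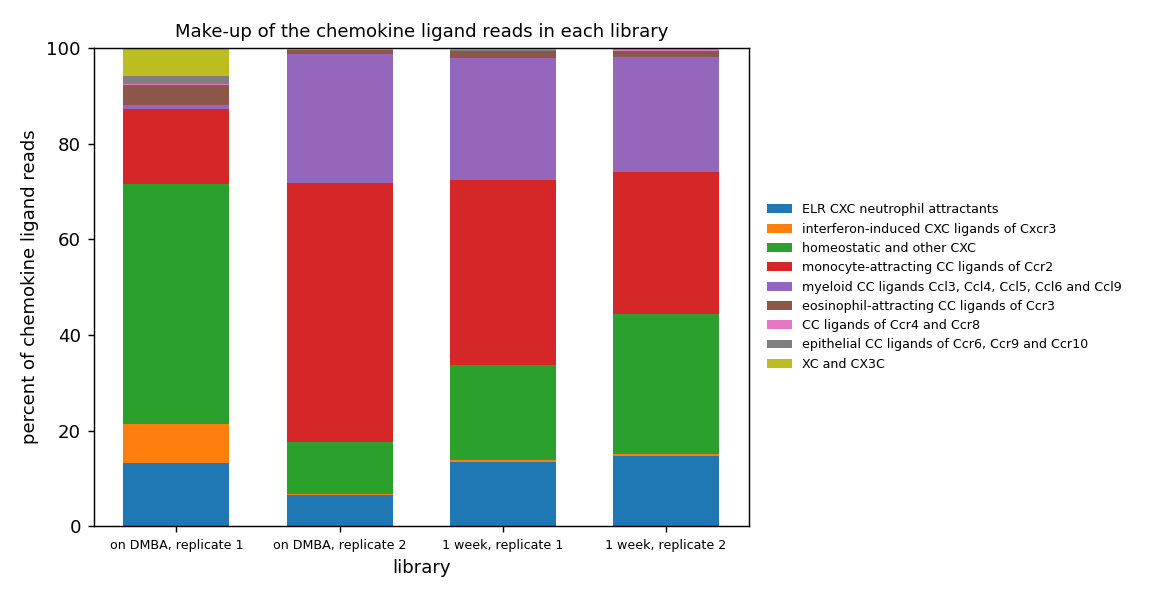
Percent of chemokine ligand reads that fall to each role in each library, as stacked bars that start at 0. The Cxcl12 to Cxcl17 group leads in on-DMBA replicate 1 (50.05%). The Ccl2, Ccl7, Ccl8 and Ccl12 group leads in on-DMBA replicate 2 (54.1%) and 1-week replicate 1 (38.6%). In 1-week replicate 2 both groups take about the same part (29.4% and 29.7%). Most reads of the Ccl2, Ccl7, Ccl8 and Ccl12 group are from Ccl8 in every library.

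Position in the genome was shared by many of the ligands. In GRCm38 12 of the 33 lie on chromosome 11 and 11 on chromosome 5. In RefSeq's order of protein-coding genes Ccl2, Ccl7, Ccl11, Ccl12, Ccl8 and Ccl1 are consecutive on chromosome 11, as are Ccl5, Ccl9, Ccl6, Ccl3 and Ccl4. Without on-DMBA library 1, 9 of the 10 tested ligands of chromosome 11 and 5 of the 9 tested of chromosome 5 had a difference below 0. The medians were -1.06 and -0.42. Over all 24 tested ligands 18 were below 0 in that fit. Position and ligand class go together here and cannot be told apart. Neighbours did not always move alike. On chromosome 8, Ccl22, Cx3cl1 and Ccl17 are consecutive, and the level of Cx3cl1 was lower in both 1-week libraries than on DMBA while those of Ccl22 and Ccl17 were higher.

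The chemokine receptors were described from a list of 18 genes, of which 15 passed the filter. None was called in limma (0 higher and 0 lower). At 1 week 4 were higher without overlap of the groups (Ccr6, Ccr7, Cxcr2 and Cxcr4, where the share over all genes was 14%) and 0 lower (9.14% of all genes), and the median log2 difference was 0.79. Summed over the list, receptor levels were 22.9 and 1289.7 scaled CPM under DMBA against 549 and 968 after 1 week, the same order of libraries as for the ligands. With on-DMBA library 1 left out the receptor median was 0.05, and the log2 difference of Cx3cr1 was -2.45. With on-DMBA library 2 left out the receptor median was 1.62, and the log2 difference of Cx3cr1 was 5.64. Of the 5 atypical receptors in the table, which bind chemokines without G protein signalling or present them, 3 were higher at 1 week without overlap (14% of all genes), 0 were lower without overlap and 0 were called, with a median of 2.23. Leaving out on-DMBA library 1 gave a median of 1.88, with a log2 difference of 2.08 for Cxcr7. Leaving out on-DMBA library 2 gave a median of 3.33, with a log2 difference of -0.35 for Cxcr7. Darc, which carries chemokines across venular endothelium, measured 0.119 and 0.538 under DMBA against 3.75 and 8.56 after 1 week. Ccrl1, a scavenger of the Ccr7 ligands, measured 2.14 and 2.15 under DMBA (18 and 12 reads) and 64 and 60 reads, or 8.56 scaled CPM or more, after 1 week, and Ccbp2, a scavenger of inflammatory CC ligands, measured 0.356 and 6.28 under DMBA against 10.6 and 11 after 1 week. Cxcr7, a scavenger of Cxcl12, was lowest in on-DMBA library 2, at 42.7 and 7.54 under DMBA against 29.7 and 37.5 after 1 week. The 3 blood endothelial markers (Pecam1, Cdh5 and Kdr) summed to 4.51 and 118 under DMBA against 388 and 776 after 1 week, and their part in Darc was not tested.

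**Figure D5:**
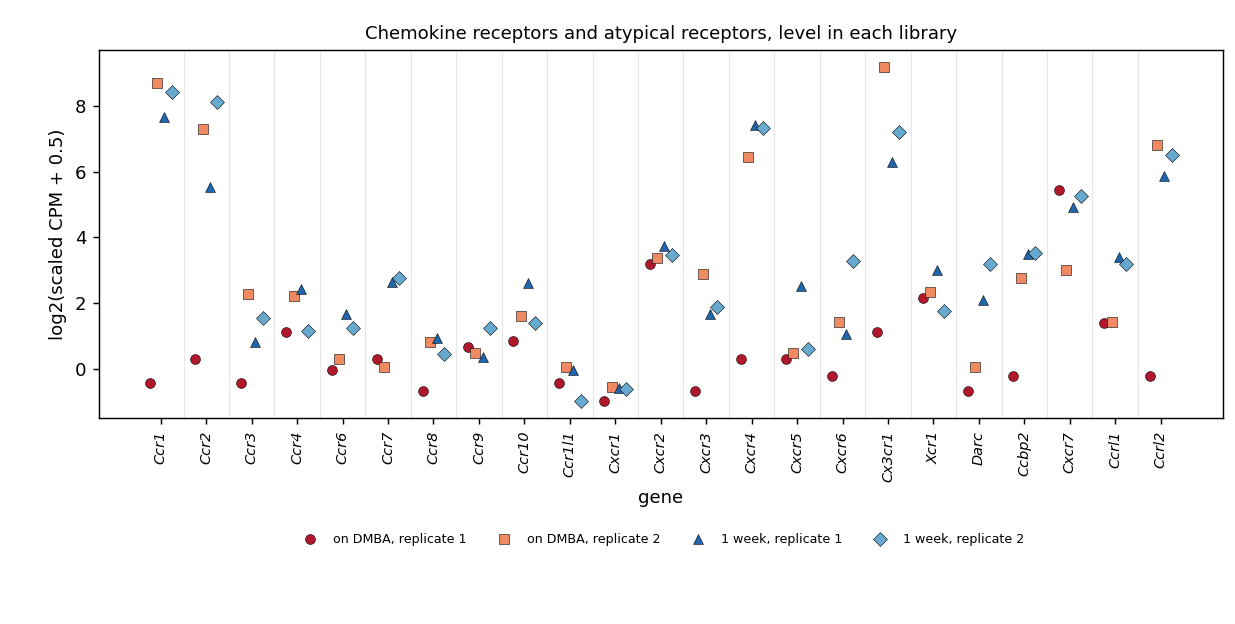
Level of the chemokine receptors and atypical receptors in each of the 4 libraries, as log2(scaled CPM + 0.5). Ccr1, Ccr2, Cx3cr1 and the atypical Ccrl2 are among the genes with a wide gap between on-DMBA replicate 1 and the other libraries, and Cxcr2 lies between 8.67 and 12.8 scaled CPM in all 4.

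Genes that induce chemokines or answer the same signals were taken from 3 further lists, and 0 of their members were called with all 4 libraries. Of 18 NF-kappa B regulators and targets tested, 10 were higher at 1 week without overlap (14% of all genes) and 0 lower (9.14% of all genes), with a median of 0.89. This median was 0.38 with on-DMBA library 1 left out and 1.25 with on-DMBA library 2 left out. The direction of this median did not turn as that of the ligands did. Nfkbia, the inhibitor that NF-kappa B induces against itself, measured 105 and 201 scaled CPM under DMBA against 268 and 226 after 1 week. Vcam1, an endothelial and stromal adhesion gene, measured 4.27 and 541 under DMBA against 389 and 385 after 1 week. Of the 9 inducing cytokines tested, 6 were higher at 1 week without overlap (again beside 14% of all genes) and 0 lower, with a median of 1.40. The cytokine median was 0.81 without on-DMBA library 1 and 2.13 without on-DMBA library 2. Il1b, a main inducer of the ELR ligands, measured 0.831 and 218 under DMBA against 344 and 772 after 1 week, and Osm, a cytokine of the interleukin 6 family, measured 0.594 and 29.4 under DMBA against 31.6 and 41.8 after 1 week. Of the 14 interferon response genes tested, 0 were free of overlap in either direction, the median was 0.13, and all 14 were highest in on-DMBA library 2. The direction of this median turned, as for the ligands. The interferon list median was -0.70 without on-DMBA library 1 and 1.05 without on-DMBA library 2. The interferon regulator Irf1 measured 36.1 and 183 under DMBA against 83.1 and 119.5 after 1 week, and Ifng, the main inducer of Cxcl9, was at or under 0.313 in all 4 libraries. Cxcl9 did not follow that order, since it was highest in on-DMBA library 1.

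Chemokine genes with other symbols fall outside the rule and were read for context, and 0 of the 4 were called with all libraries. The median was 0.91, and it was -0.18 without on-DMBA library 1. Without on-DMBA library 2 it was 2.08. Pf4, a platelet chemokine that macrophages also express, measured 0.119 and 306 scaled CPM under DMBA against 227 and 270.4 after 1 week, and the platelet markers Itga2b and Gp9 were at or under 7.19 in every library. Ppbp, the other platelet chemokine, measured 0.356 and 10.2 under DMBA against 5.78 and 9.13 after 1 week. Mif, a cytokine that can bind Cxcr2 and Cxcr4, ran the other way and was highest in on-DMBA library 1, at 231 and 25.3 under DMBA against 58.9 and 48.5 after 1 week.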

How the data were processed

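RNA of sorted tumour cells from 4 mice was depleted of ribosomal RNA and sequenced with a dUTP strand-marking library, per the labels' protocols. The mm9 build is listed in the submitters' processing notes, together with HTSeq, TopHat2 (2.1), edgeR (3.2.3) and CASAVA (1.8.2). The sources used here do not give annotation or strand setting. The authors deposited 1 table of a normalised signal per gene, named CPM. Its columns sum to 1149287, 1011509, 867697 and 1092838, so it is called scaled CPM here and treated as a signal, although plain CPM had been planned for. Dividing by the smallest step of its column made 100% of the values whole (tolerance 0.01 reads), which gave the recovered reads.

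Genes at 1 scaled CPM in at least 2 libraries (15419) were tested two-sided with limma (version 3.58.1, R 4.3.3), using lmFit and eBayes with a trend, on log2(scaled CPM + 0.5). P-values were adjusted by Benjamini-Hochberg over every gene tested, with a threshold of 0.05. This scale understates the change of low genes. The smallest two-sided p of an exact permutation test in this design is 0.333. Alternatives included DESeq2 (1.42.0) and edgeR's quasi-likelihood test (4.0.16), both on recovered reads. Only the limma fit with all 4 libraries was tested on simulated data, in which both groups had the same spread. Intervals and the floor of 3 reads cover counting error only. Members and lists were chosen with earlier results of these data known. Every member was accounted for, and a log2 difference with its SE is given for tested members whose groups do not overlap, up to 6 in each direction by p. Of each context list up to 4 genes with the highest mean are named, and receptors are named with their ligands. Marker genes are listed to define their sums. Darc, Ifng and genes named for a lack of overlap or a call were added after their values were seen. A result on 1 receptor gene is not reported here. Promoter windows are RefSeq's (GRCm38.p6), and transcript lengths are of GENCODE M21, neither of the authors' build. Chromosome names are from GENCODE M21.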

Additional observations from a re-analysis of the deposited data

How the results depend on the processing

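No paired analysis by animal was possible because the 4 mice were different animals, and same-numbered libraries did not deviate together (r = 0.02 across 15419 genes, which are not independent replicates). With a replicate block limma called 3 ligands, all higher (Ccl6, Ccl9 and Cxcl13), and 288 genes in all. That block joins different mice by number only, so no conclusion is drawn from its calls. Leaving out 1 library at a time, the number of ligands called ranged from 0 to 16, that of all genes from 0 to 3761, the ligand median from -0.75 to 3.67 and the number of ligands without overlap from 8 to 21. With no filter on low values 9 ligands were without overlap (6 higher, 3 lower), the additions being Ccl5, Ccl17, Ccl22 and Cxcl17. With plain CPM 5 were, as with scaled CPM, but with Cxcl16 (higher) in place of Cxcl10 (lower). The share of all genes without overlap was not computed with no filter, with plain CPM or with 1 library left out. Lack of overlap is easier to reach with 1 library left out, so those counts cannot be set against the count with all 4 libraries. DESeq2 called 19 genes in all. With a pseudocount of 0.1 or 1, median ratio scaling, a filter of 5 scaled CPM, plain CPM, no filter, no variance trend, edgeR and DESeq2, 0 ligands were called. The ligand median then lay between 0.03 and 1.65. Plain CPM moved the median of all genes to 0.11. The differences of Cxcl13, Cxcl5, Cx3cl1, Cxcl9 and Cxcl10 kept their sign in every alternative run, except that Cxcl10 was not tested with the filter of 5. These genes were picked because their groups do not overlap. With such groups, leaving out a library or changing pseudocount, filter, variance trend or block cannot turn the sign, so most of these runs could not fail. The cause of these shifts was not tested. Ligands at or under 3 reads in a library, 14 in on-DMBA replicate 1, limit what can be compared there.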
